A study of Mus musculus with 8 samples.

Results

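5-aza-2′-deoxycytidine (5-azadC, decitabine) given alone was compared with vehicle in NIC-5231 mammary tumors. The comparison uses 4 of the 8 libraries of the series, the 2 whose treatment label is 5-azadC and the 2 whose label is DMSO, the vehicle. NIC-5231 cells come from a mouse breast tumor driven by the receptor tyrosine kinase ErbB2. In all groups, 1000000 cells were grafted orthotopically, into the mammary fat pad, in NSG mice aged 5 to 7 weeks, and treatment began once tumors could be felt. The 5-azadC group received 1 mg/kg by intraperitoneal injection every 2 days, and the vehicle group the carrier, saline with 30% PEG and 5% DMSO. Each group held 5 mice, and each library was made from pooled tumor DNA of 2 mice. The labels do not say whether pools of a group share a mouse, so the spread between libraries may be partly technical. The model is a single cell line, the mice lack lymphocytes, and the tumors also hold host cells of mouse origin, whose DNA cannot be told apart from that of the tumor cells. The remaining libraries, with the ERRα inhibitor C29 alone or with C29 and 5-azadC, served to group cytosines, to read tiles and named regions in libraries that had not called them, and in an edgeR fit of all 8 libraries.

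DNA methyltransferase DNMT1 copies the methylation of a CpG to the new strand after each DNA replication, and DNMT3A and DNMT3B can add methylation to sites without it. 5-azadC enters cells through nucleoside transporters, is phosphorylated first by deoxycytidine kinase and is built into DNA, where it traps these enzymes covalently. Methylation is then diluted as cells divide. In mammalian tissue most CpGs in gene bodies and between genes are methylated, while CpG-rich promoters are mostly free of methylation.

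Reduced representation bisulfite sequencing (RRBS) reads fragments that begin and end at CCGG, and the value of a cytosine is the share of its reads that stayed methylated. The 4 libraries held 63888872 to 81299065 reads over cytosines, with a median of 25 to 30 reads per listed cytosine. Spiked-in unmethylated DNA read 0.232% to 0.302% methylated and methylated DNA 97.5% to 98.2%, with no order between the groups. A total of 884502 autosomal cytosines of CpGs had 10 or more reads in all 4 libraries. Across these cytosines Pearson's r was 0.842 between the vehicle libraries, 0.785 between the 5-azadC libraries and 0.792 to 0.829 between groups, where cytosines are not independent replicates.

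Regions that carry the main patterns are printed from the plus strand of the GRCm38 reference, 5′ to 3′, with the CpGs that were measured in capitals. Pak7, Majin and Bcr stand for loss, Efemp1 and Slc2a3 for gain, and Necab3 for methylation that was kept. The stretch of Pak7 is intronic, 341 to 435 bases inside the gene, and those of Majin and Efemp1 are intronic too, 213 to 342 and 127 to 188 bases inside. That of Necab3 lies in coding sequence, 111 to 177 bases inside, and those of Bcr and Slc2a3 lie in introns far from the gene start.
Pak7 promoter, chr2:136387532-136387626: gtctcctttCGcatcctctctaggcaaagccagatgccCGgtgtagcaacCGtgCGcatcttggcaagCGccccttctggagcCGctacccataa
Majin promoter, chr19:6184601-6184730: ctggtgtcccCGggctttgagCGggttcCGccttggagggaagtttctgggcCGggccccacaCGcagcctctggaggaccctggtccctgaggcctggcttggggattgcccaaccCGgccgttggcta
Bcr intron, chr10:75173678-75173761: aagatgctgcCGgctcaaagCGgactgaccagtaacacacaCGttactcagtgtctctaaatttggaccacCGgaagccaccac
Efemp1 promoter, chr11:28853331-28853392: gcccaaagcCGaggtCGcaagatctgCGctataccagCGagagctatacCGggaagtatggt
Slc2a3 intron, chr6:122765246-122765311: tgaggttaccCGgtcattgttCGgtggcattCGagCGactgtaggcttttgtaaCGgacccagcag
Necab3 promoter, chr2:154558713-154558779: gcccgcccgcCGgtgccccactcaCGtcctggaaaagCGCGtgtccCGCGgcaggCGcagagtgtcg

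Tumors with 5-azadC held less methylation than tumors with vehicle, and the difference was shallow and wide. Mean methylation over the 884502 cytosines stood at 35.69% and 35.65% with vehicle against 31.04% and 31.48% with 5-azadC. The groups did not overlap, and the difference of -4.41 percentage points, or -12.4% of the vehicle level, was larger than the SD between libraries (0.0307 points with vehicle and 0.314 points with 5-azadC, n = 2 each). In an exact two-sided permutation test p was 0.33, the smallest value that 2 libraries against 2 can give. On the X chromosome, over 20757 cytosines outside the other counts, the libraries read 56.6% and 55.7% with vehicle and 52.0% and 52.8% with 5-azadC.

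The difference lay at the methylated end of the scale. Cytosines methylated in every read made up 21.4% and 23.3% of all cytosines with vehicle against 15.6% and 13.5% with 5-azadC. Cytosines between 20% and 80% were more frequent with 5-azadC, 20.4% and 21.7% against 16.9% and 15.6%. The share without any methylated read, 51.5% and 53.3% with vehicle and 54.9% and 52.4% with 5-azadC, overlapped between the groups.

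**Figure D1:**
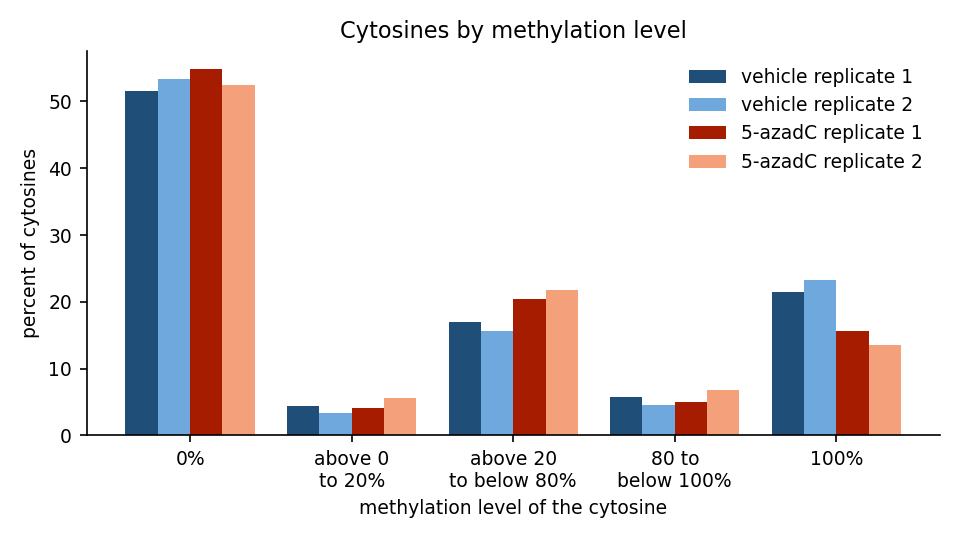
Percent of the 884502 cytosines (y axis) in 5 classes of methylation level (x axis), 1 bar per library. At 100% both 5-azadC bars (15.6% and 13.5%) lie below both vehicle bars (21.4% and 23.3%), between 20% and 80% above them, and at 0% the groups overlap.

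To relate the change to the starting level without using the same library on both sides, 1000 bp tiles were grouped by their level in one vehicle library and compared with the other. Tiles below 10% in vehicle replicate 1 averaged 3.17% in vehicle replicate 2, and 2.71% and 2.66% in the 5-azadC libraries. Tiles at 90% or above averaged 91.5% in vehicle replicate 2, and 81.3% and 82.3% in the 5-azadC libraries, a difference of -9.74 points. The difference was -5.37 points in tiles at 20 to 40% and -8.87 points at 60 to 80%, so that it grew with the starting level up to about 80% and then stayed near 10 points. With the vehicle libraries exchanged, the tiles at 90% or above differed by -9.95 points.

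**Figure D2:**
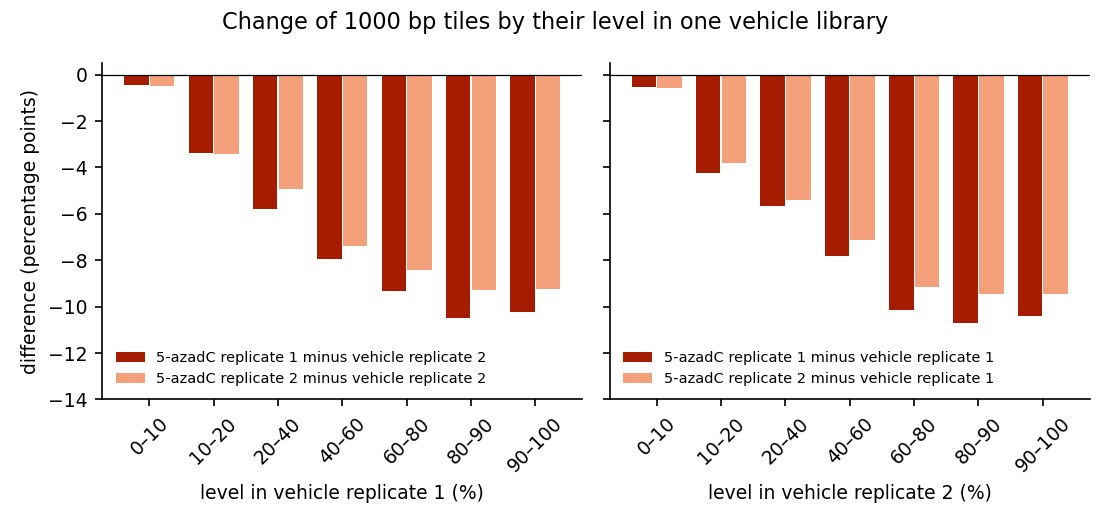
Mean difference in percentage points (y axis) between each 5-azadC library and one vehicle library, for 1000 bp tiles grouped by their level in the other vehicle library (x axis). Both 5-azadC libraries are below vehicle in every class, by under 1 point in tiles below 10% and by about 10 points in tiles at 80% or above.

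Every part of the genome that was examined shared in the loss. In coding promoters (from 1000 bp upstream to 500 bp downstream of the gene's 5′ end) cytosines averaged 6.45% and 6.47% with vehicle and 5.57% and 5.70% with 5-azadC. Introns of coding genes went from 48.0% and 47.9% to 41.1% and 41.7%, and cytosines outside genes from 61.3% and 61.01% to 53.9% and 54.4%. As a share of the vehicle level these are -12.7% in promoters, -13.6% in introns, -11.8% in coding exons and -11.4% between genes. Both 5-azadC libraries lay below both vehicle libraries in each of these classes, at each distance from a gene start and on each of the 19 autosomes, where the relative change ran from -11.1% on chromosome 18 to -13.7% on chromosome 19. Cytosines in repeats, which are among the most methylated, went from 59.6% and 59.5% to 53.3% and 53.6%, a relative change of -10.2% against -12.7% outside repeats. The smaller relative loss in repeats was seen between genes (-9.17% against -12.2%) and in introns (-12.03% against -13.8%), not in promoters (-14.3% against -12.7%) or coding exons (-12.2% against -11.8%).

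Highly methylated CpGs with few neighbours lost more than those with many. To choose such CpGs without the libraries compared, cytosines at 80% or more in both C29 libraries were taken. Where no other CpG lay within 35 bp, 23150 cytosines averaged 90.1% and 89.7% with vehicle and 77.2% and 78.3% with 5-azadC. Where 6 or more others lay within 35 bp, 7714 cytosines averaged 90.7% and 91.1% with vehicle and 85.3% and 85.8% with 5-azadC. The starting levels were thus alike, and the differences were -12.1 and -5.32 points, with -10.3 points at 1 to 2 neighbours and -8.01 points at 3 to 5. The contrast of the outer classes differed by -6.79 points between the groups, whose libraries did not overlap (exact permutation p = 0.33, the smallest possible).

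The same order was seen within the enzyme's own site and outside it. In CCGG the differences from 0 to 6 or more neighbours were -12.1, -10.4, -8.27 and -5.04 points, and outside CCGG -12.1, -10.1, -7.89 and -5.38 points. The split by CCGG was added after the other values were seen. In libraries that took no part in the comparison, at cytosines of 80% or more in both vehicle libraries, C29 with 5-azadC minus C29 alone gave -8.72, -7.13, -5.24 and -0.237 points in the same order. In the last class, one library with both drugs (84.4%) lay between the C29 libraries (86.4% and 81.8%). Starting levels were not alike here, as the C29 libraries read 89.8% and 87.8% where no other CpG lay within 35 bp.

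**Figure D3:**
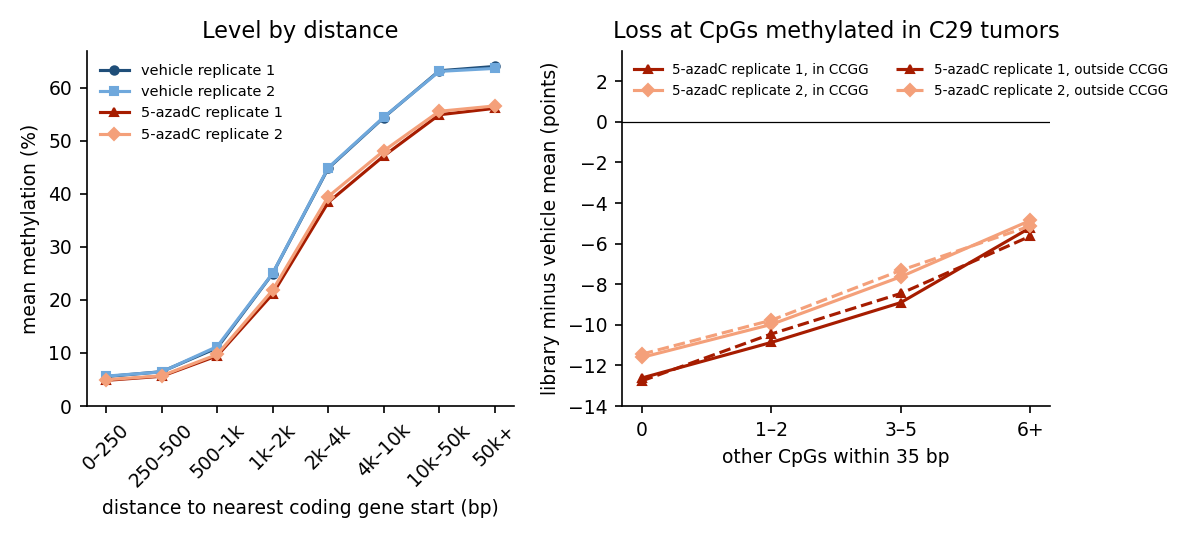
Left, mean methylation (y axis, percent) of each library by distance to the nearest coding gene start (x axis, bp). Right, each 5-azadC library minus the vehicle mean (y axis, points) at cytosines of 80% or more in both C29 libraries, by the number of other CpGs within 35 bp (x axis), with solid lines in CCGG and dashed lines outside. Loss shrinks from about 12 points without neighbours to about 5 points with 6 or more.

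The bases beside the CpG made less difference. Sites with A or T on both sides (WCGW) are known to lose methylation readily in dividing cells, and sites with C or G on both sides (SCGS) less so. Among the cytosines of 80% or more in both C29 libraries, WCGW sites changed by -9.92 points and SCGS sites by -9.83 points. The contrast of the 2 kinds was -2.06 and -1.99 points in the vehicle libraries and -2.19 and -2.05 points in the 5-azadC libraries, and the groups overlapped (exact permutation p = 0.67). Within classes of neighbour number the contrast differed by -2.13, -0.72 and -1.14 points at 0, 1 to 2, and 3 or more neighbours. There the 5-azadC libraries lay below the vehicle libraries in each class (exact permutation p = 0.33 each).

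For regions, reads were summed over 3 or more cytosines and compared by logistic regression with a likelihood-ratio test, after methylKit. A read that covers several cytosines was counted at each of them, so read counts of a region exceed its separate reads. In the Lmnb1 tile named below, for example, the 145 reads of 5-azadC replicate 1 are 29 reads at each of 5 cytosines. A region was called lost or gained at a Benjamini-Hochberg q below 0.01, a difference of 25 percentage points or more, and both 5-azadC libraries beyond both vehicle libraries. It was called kept at 80% or more in all 4 libraries. Of 77463 tiles, 4894 were lost (6.32%), 448 were gained (0.578%) and 9915 were kept (12.8%), while 19436 (25.1%) were at 20% or less in all 4 libraries. Both 5-azadC libraries lay below both vehicle libraries in 32.3% of all tiles and above them in 6.03%. In lost tiles the median level was 86.9% with vehicle and 51.0% with 5-azadC, and in gained tiles 31.6% and 68.4%.

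These calls rest on counting error, and the spread between libraries of a group is wider. The 2 vehicle libraries differed from each other by 25 points or more in 9.96% of tiles and the 5-azadC libraries in 13.5%. At single cytosines whose pooled level in vehicle was 40 to 60%, the root mean square difference between the vehicle libraries was 54.5 points, 4.37 times the 12.5 points that counting alone gives. With edgeR's quasi-likelihood test, which takes that spread into account, 0 tiles, promoters or gene bodies passed a Benjamini-Hochberg q of 0.01 with 4 or with 8 libraries. At an unadjusted p below 0.05 that test gave 4015 tiles lower and 720 higher with 4 libraries, of 77463 tested. Of 13355 gene bodies 1955 were lower and 70 higher, and of 11932 promoters 226 lower and 209 higher, so that promoters were nearly balanced. A share of 0.05 would pass if no region differed. The overdispersion-corrected F test also called 0 regions. A single lost or gained region below is therefore a difference between these 4 libraries.

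Lost tiles were most frequent in coding introns and in CpG-poor sequence. They made up 9.10% of tiles in coding introns, 7.45% between genes, 7.21% in other genes, 5.96% in coding exons and 1.12% of tiles that hold a coding promoter. By CpG number, 10.6% of tiles with fewer than 10 CpGs were lost and 0.272% of those with 80 or more. Tiles that start low cannot lose the 25 points a call needs. All 4 libraries read 20% or less in 79.1% of promoter tiles and 11.8% of coding intron tiles. They did so in 84.3% of tiles with 80 or more CpGs and 2.95% of those with fewer than 10. The lost shares thus do not separate position or CpG number from starting level. Gained tiles were also more frequent with fewer than 10 CpGs (0.804%) than with 80 or more (0.0681%). Tiles made only of repeat sequence were lost in 5.30% of cases and kept in 27.4%, against 6.63% and 12.1% of tiles without repeats. Where 2 tested tiles adjoined, the tile after a lost one was lost in 38 of 507 cases (7.50%), and after any tile in 3.93%. It was gained in 5 of the 507 cases (0.986%), and after any tile in 0.464%. These shares were not matched for starting level.

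The lost tiles were read again in libraries that had not been used to call them. Of the 4894, 2668 were measured in the C29 libraries and in those with C29 and 5-azadC, and C29 with 5-azadC minus C29 had a median of -7.34 points there. Over all 55817 tiles measured in both sets the median was -1.16 points, but most of those start low. In the 13606 tiles that were neither lost nor gained and stood at 60 to 90% with vehicle, the median was -6.21 points. The difference was below 0 in 68.8% of lost tiles and in 70.8% of the tiles of like level, and it reached -25 points in 10.8% and 7.68%.

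In tiles chosen by their values in the 4 compared libraries, the libraries not used for the choice lay in between. The 2668 tiles averaged 80.2% and 81.2% with vehicle, 46.4% and 48.5% with 5-azadC, 71.5% and 68.4% with C29, and 62.7% and 63.3% with both drugs. The 206 gained tiles measured in all 8 libraries averaged 32.01% and 29.6% with vehicle, 67.02% and 64.1% with 5-azadC, 53.6% and 49.7% with C29, and 48.6% and 46.9% with both drugs. In these libraries the gained tiles were thus lower with 5-azadC than without it, with a median difference of -6.20 points. The choice itself sets the vehicle and 5-azadC levels of these tiles apart. In the tiles of like level that were not called, vehicle (77.5% and 77.02%) and C29 (77.4% and 75.7%) were nearly alike.

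**Figure D4:**
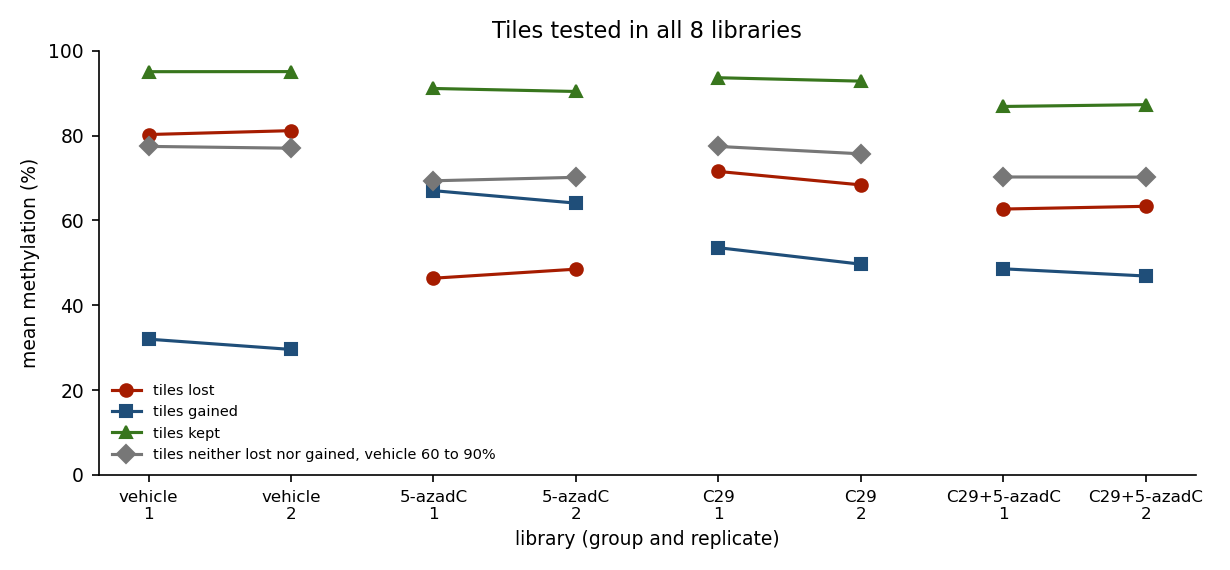
Mean methylation (y axis, percent) in each of the 8 libraries (x axis) of lost, gained and kept tiles and of tiles neither lost nor gained at 60 to 90% with vehicle, over tiles measured in all 8 libraries. Lost tiles lie at 46.4% and 48.5% in the 5-azadC libraries that called them but at 62.7% and 63.3% with both drugs, and gained tiles lie between 46.9% and 53.6% in all libraries that did not call them.

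Lost tiles were spread over many genes. Among 15588 coding genes with a tested tile, 2497 held a lost tile (16.02%), 236 a gained tile (1.51%) and 80 both. The gene record with the most was Gm20388, a predicted gene whose record spans many neighbours, with 51 lost of 568 tested tiles. Nav2, which encodes a neuron navigator protein, held 9 lost of 41 tiles, Stox2 7 of 23, Gse1 (which lies inside the record of Gm20388) 7 of 79, and the phosphatase gene Ctdspl 6 of 19. Esrrg, the gene of the nuclear receptor ERRγ, held 6 lost of 27 tiles with a median difference of -10.5 points over its tiles. Counts of lost tiles favour genes with many tested tiles. Gm20388 lost 8.98% of its tiles and Gse1 8.86%, beside 6.32% of all tiles and 9.10% of tiles in coding introns. The shares of Nav2, Stox2, Ctdspl and Esrrg were higher than both of these, but choosing genes by their lost tiles itself favours high shares. Of the genes tied with Ctdspl and Esrrg at 6 lost tiles, Nedd4l lost 30%, Mtss1 27.3% and Fgfr2 4.11% of its tiles.

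The lost tiles with the largest decreases that hold no promoter cytosine, among those with 5 or more cytosines and 100 or more reads in each library, lay in introns, an exon and noncoding loci. In Bcr, a gene known from leukemia fusions, an intronic tile (chr10:75173001-75174000) read 97.5% and 99.1% with vehicle and 36.1% and 56.0% with 5-azadC. In Tcf7l1, a transcriptional repressor of the Wnt pathway, an intronic tile (chr6:72763001-72764000) read 75.8% and 81.1% against 23.3% and 28.1%. In Lmnb1, which encodes a lamin of the nuclear envelope, a tile with coding exon sequence (chr18:56740001-56741000) read 100% in both vehicle libraries and 13.8% and 56.1% with 5-azadC. The groups are far apart in all 3 tiles, yet the 5-azadC libraries of Lmnb1 differ from each other by more than 40 points.

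The others of these 8 tiles lay outside coding genes. A tile at chr4:129500001-129501000, in the antisense gene Gm12979, read 95.6% and 94.9% with vehicle and 34.2% and 44.2% with 5-azadC. A tile at chr4:143073001-143074000, in the noncoding gene 6330411D24Rik, read 54.5% and 90.7% against 18.3% and 11.3%. The tiles at chr2:167596001, chr7:123031001 and chr18:54828001 differed by -51.1, -51.8 and -53.5 points. The tile in Gm12979 differed by -36.9 points when cytosines with 5 reads were let in and by -32.1 points with strands summed.

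The named tiles did not move one way in the other libraries. The Bcr tile read 83.8% and 81.1% with C29 and 75% and 73.8% with both drugs, without overlap. The Tcf7l1 tile read 53.0% and 62.2% with C29 and 57.5% and 61.02% with both drugs, so that the groups overlap. The tile at chr18:54828001 read 78.3% and 91.7% against 93.5% and 59.1%, also with overlap, and the Lmnb1 tile had 5 reads in one C29 library.

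Gained tiles of the same kind were intronic or exonic. The largest was an intronic tile of Slc2a3, a glucose transporter gene (chr6:122765001-122766000), which read 0.495% and 0% with vehicle and 53.6% and 46.7% with 5-azadC. An intronic tile of Tnrc18 (chr5:142761001-142762000) read 23.9% and 30.1% against 64.0% and 82.5%. A tile shared by Yif1b and 2200002D01Rik (chr7:29247001-29248000) read 0% and 11.96% against 61.2% and 36.0%, and one of Adamtsl1 (chr4:85765001-85766000) 12.3% and 43.2% against 61.4% and 82.6%. The groups do not overlap in any of the 4 tiles, but the gain shared by Yif1b and 2200002D01Rik was 27.1 points without 5-azadC replicate 1 and that of Adamtsl1 27.4 points without vehicle replicate 1. The C29 libraries, without 5-azadC, read 27.2% and 32.2% in the Slc2a3 tile and 78.9% and 44.1% in that of Tnrc18. They read 40.7% and 23.8% in the tile of Yif1b and 73.9% and 63.1% in that of Adamtsl1. In each of the 4 tiles both C29 libraries thus lay above both vehicle libraries. The tiles were chosen as gains over these vehicle libraries, which favours low vehicle values, so this is not a result about C29. Gained tiles measured in all 8 libraries also averaged 53.6% and 49.7% with C29 against 32.01% and 29.6% with vehicle.

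Coding promoters were mostly free of methylation, and few were called. Of 11932 promoters measured, 9564 (80.2%) were at 20% or less in all 4 libraries, 132 were kept, 106 were lost (0.888%) and 10 were gained (0.0838%). Both 5-azadC libraries lay below both vehicle libraries in 17.0% of promoters and above them in 9.53%. The 2368 promoters above 20% in at least 1 library averaged 47.2% in both vehicle libraries, and 40.5% and 41.9% with 5-azadC. Their median difference was -5.68 points, and 1719 of them (72.6%) were lower, while over all promoters the median was -0.0239 points.

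Gene bodies, from 500 bp inside the gene to its end, showed the loss more widely. Of 13355 bodies, 364 were lost (2.73%), 27 were gained (0.202%) and 960 were kept. Both 5-azadC libraries lay below both vehicle libraries in 47.3% of bodies and above them in 3.87%, and the median difference was -6.29 points. This median covers 25% of bodies at -11.9 points or lower and 25% at -0.848 points or higher.

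The lost promoters with the largest decreases began at medium or high methylation. Pak7, a serine/threonine kinase gene (chr2:136387467-136388967), read 83.8% and 78.7% with vehicle and 32.4% and 29.7% with 5-azadC, a difference of -50.3 points, which was -27.9 points when cytosines with 5 reads were let in and -36.04 points with strands summed. Its single cytosines varied with 5-azadC: 136387571 read 12.7% and 100%, 136387582 read 100% and 25%, and 136387615 read 7.14% and 0%. The C29 libraries read 100% and 35.9% in the Pak7 promoter, and those with both drugs 25% and 50%. Skida1, a gene of the SKI/DACH domain family (chr2:18048551-18050051), read 53.1% and 90.6% against 12.4% and 32.1%, or -50.6 points, and -31.6 points without vehicle replicate 2. Dixdc1, whose product acts in Wnt signalling (chr9:50739017-50740517), read 74.1% and 83.9% against 27.7% and 32.5%, or -45.3 points, and -13.0 points when the window was set at any transcript start. In these 3 promoters the groups do not overlap, and the vehicle libraries of Skida1 lie furthest from each other.

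B4galt2, a galactosyltransferase gene (chr4:117882987-117884487), read 59.1% and 51.0% with vehicle and 12.1% and 22.8% with 5-azadC, but its difference was -21.5 points when cytosines with 5 reads were let in and -6.36 points at 20 reads. Ephx2, which encodes the soluble epoxide hydrolase (chr14:66124000-66125500), read 25.7% and 54.1% against 0% and 7.32%, and without vehicle replicate 2 it fell short of 25 points at -20.8. Amdhd2, an enzyme of amino sugar metabolism (chr17:24163266-24164766), read 100% and 84.7% against 49.0% and 57.5%, and -24.4 points with strands summed. Gm45844, a predicted gene (chr7:7277789-7279289), read 48.6% and 59.3% against 10.9% and 5.66%, with a difference of -18.4 points at 20 reads and -14.3 points with the highest coverage kept in.

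Peg10 and Sgce are imprinted genes that are read in opposite directions from one control region and are active on the paternal copy. They share the 5 measured cytosines (promoter of Peg10, chr6:4746306-4747806), which read 80% and 77.9% with vehicle and 32.4% and 48.3% with 5-azadC, a difference of -35.1 points, which was -22.1 points, and not called, with strands summed. The C29 libraries read 21.1% and 62.7% there and those with both drugs 59.0% and 84.5%. Pcdha8, a clustered protocadherin gene (chr18:36991371-36992871), read 79.2% and 84.8% with vehicle and 78.7% and 39.5% with 5-azadC. Its call rests on 5-azadC replicate 2, since without that library the difference was -4.29 points.

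Among the gained promoters, Efemp1, a gene of an extracellular matrix glycoprotein (chr11:28852204-28853704), read 9.55% and 0% with vehicle and 37.8% and 38.5% with 5-azadC. Ltb, which encodes lymphotoxin beta (chr17:35193439-35194939), read 47.1% and 37.6% against 75.2% and 71.2%. Both gains are above 30 points without overlap, but that of Efemp1 was 12.9 points at a minimum of 5 reads, and that of Ltb 24.3 points with strands summed and 19.8 points without CCGG cytosines. With C29 alone, Efemp1 read 8.52% and 42.8%, and Ltb 26.7% and 39.4%.

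The last gained promoters under the rule were less stable. Agbl4, a cytosolic carboxypeptidase gene (chr4:110396661-110398161), read 25.7% and 2.28% with vehicle and 27.9% and 44.7% with 5-azadC, and its difference was 9.38 points without vehicle replicate 2. Skap1, an adaptor gene of T cells (chr11:96463593-96465093), read 37.4% and 39.4% against 77.7% and 57.3%. Its difference of 25.1 points became -3.14 points when cytosines with 5 reads were let in. At the threshold of 25 points itself, Slpi (-25.04 points) and Cep295nl (-25.1 points) lay just inside among the losses, and Ntf3 (-24.9 points) and Adprhl2 (-24.8 points) just outside.

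Some promoters kept nearly full methylation under 5-azadC. The piRNA pathway gene Mael (chr1:166238247-166239747) read 96.9% and 100% with vehicle and 100% and 96.1% with 5-azadC. Mvp, the major vault protein gene, read 94.9% and 100% against 100% and 100%, and Necab3 94.4% and 100% against 93.7% and 100%. The predicted genes Gm49394, Gm20662 and Gm45837 also stayed between 94.5% and 100% in all 4 libraries. These 6 promoters had the highest lowest level among those with 5 or more cytosines and 100 or more reads in each library, so that their stability is what they were chosen for.

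**Figure D5:**
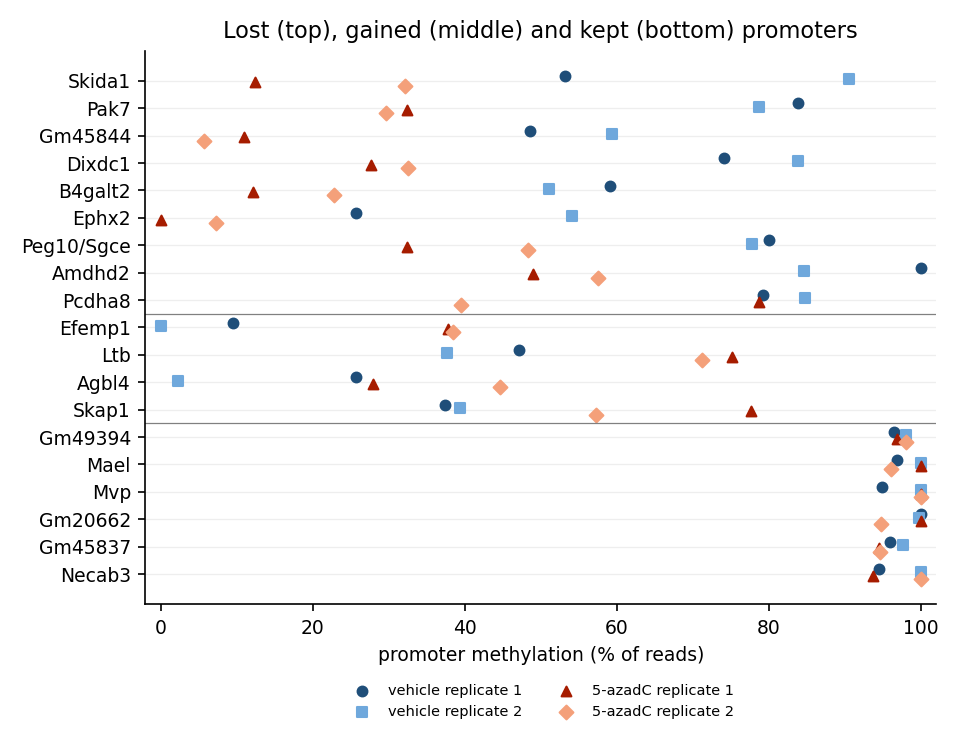
Methylation (x axis, percent of reads) of the named promoters (y axis) in each library, with lost promoters at the top, gained in the middle and kept at the bottom. In Pcdha8 and Agbl4 at least 1 5-azadC library lies within 3 points of a vehicle library, while in the summed reads of Pak7 and Dixdc1 the groups are over 40 points apart.

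Gene lists were read through their promoters, beside 0.888% lost and 0.0838% gained over all coding promoters. Over the 16 lists, 6 promoters were lost and 1 was gained. Genes that take up and process 5-azadC showed 0 of 11 promoters lost or gained, and 9 were at 20% or less in all 4 libraries. Dck, the kinase that activates the drug, read 0.322% or less in each library, and Cda, the deaminase that inactivates it, 9.86% and 2.37% with vehicle and 10.1% and 4.30% with 5-azadC. Nt5c2, a nucleotidase, read 71% and 77.7% against 43.8% and 63.2%, a difference of -19.0 points without overlap that did not reach the threshold. Slc29a1, the main equilibrative nucleoside transporter, read 69.2% and 65.1% against 85.2% and 68.9%, or 9.07 points by reads and -1.88 points with each cytosine weighted equally.

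In the DNA methylation machinery, 0 of 9 promoters were lost or gained. The promoter of Dnmt3b, a de novo methyltransferase, was below 1% in each library. Uhrf1, which guides DNMT1 to newly copied DNA, read 2.01% and 7.60% with vehicle and 0% and 2.62% with 5-azadC. Zbtb38, a methyl-CpG binding protein, read 26.0% and 16.4% against 3.82% and 11.1%, a difference of -15.2 points. Tet2 and Tdg, which act in demethylation, were at 1.45% or below in each library.

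Germline genes, silenced by promoter methylation in somatic cells, were the most methylated list. Of 26 promoters measured 1 was lost, 0 were gained and 11 were kept, and the list averaged 82.6% and 78.7% with vehicle and 77.7% and 75.8% with 5-azadC. The lost one was Majin, a gene of meiotic telomere attachment (chr19:6183388-6184888), at 100% and 92.8% against 70.5% and 69.8%, or -26.3 points, but it was -24.6 points with each cytosine weighted equally and -22.8 points without vehicle replicate 1. Dpep3 read 100% in both vehicle libraries and 96.3% and 94.4% with 5-azadC, and Tex14 99.5% and 94.7% against 99.6% and 76.1%. Dazl and Ddx4, germ cell genes named after their values were seen, were kept, at 92.7% and 95.7% against 89.9% and 90.8%, and at 85.4% and 80.2% against 85.1% and 86.3%. The list's median difference was -3.48 points, and both 5-azadC libraries lay below both vehicle libraries in 10 promoters and above them in 0. Over all coding promoters, 17.0% lay below in this way and 9.53% above.

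Imprinted genes showed 2 of 22 promoters lost, the 5 shared cytosines of Peg10 and Sgce, which were not called with strands summed, and 2 were kept. The kept ones were Nnat at 83.4% and 84.9% with vehicle and 80.2% and 82.1% with 5-azadC, and Nap1l5 at 98.5% and 85.7% against 94.4% and 90.2%. The median of the list was -0.0334 points, and in 5 promoters both 5-azadC libraries lay below both vehicle libraries while in 5 they lay above. The shares over all coding promoters were 17.0% below and 9.53% above.

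Of 35 promoters of genes often silenced in tumors, 22 were at 20% or less in all 4 libraries, where 80.2% of all coding promoters were, and 1 was lost. It was Gata4, a developmental transcription factor (chr14:63271192-63272692), at 48.4% and 25.4% with vehicle and 7.46% and 1.95% with 5-azadC, or -33.3 points, and -21.8 points without vehicle replicate 1. The C29 libraries, without 5-azadC, read 7.04% and 17.9% in the Gata4 promoter, and those with both drugs 1.47% and 22.6%. Sox17, a transcription factor that restrains Wnt signalling, read 39.9% and 37.1% against 31.4% and 31.9%, and Gata5 30.8% and 30.1% against 28.4% and 21.9%. Both lay lower without overlap but under 10 points. In this list both 5-azadC libraries lay below both vehicle libraries in 9 promoters and above them in 3, where over all coding promoters the shares were 17.0% and 9.53%. Differences in the list ran from -33.3 to 27.0 points.

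Viral sensing and interferon genes, which demethylating drugs are known to induce in some tumors, had 0 of 18 promoters lost or gained, and 16 were at 20% or less in all 4 libraries. Dhx58, a regulator of RNA sensing, read 90.7% and 100% with vehicle and 73.3% and 100% with 5-azadC, and Irf9 44.5% and 7.28% against 8.22% and 21.7%, so that the groups overlap in both. In the gene body of Usp18, an interferon-induced protease, methylation was lost from 99.3% and 100% to 76.5% and 70.7%, as the single lost body of 16 measured in this list, beside 2.73% of all bodies. Antigen presentation genes showed 0 of 10 promoters lost or gained, and 9 were unmethylated.

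The lists of other cell types gave little to read. Of 17 mammary lineage promoters, 15 were at 20% or less in all 4 libraries and 0 were lost or gained. Of 16 leukocyte markers only Lcp1 was measured, at 11.0% and 20.5% with vehicle and 9.60% and 28.2% with 5-azadC. In the gene body of Laptm5, a lysosomal protein of blood cells, methylation was gained, from 33.3% and 33.9% to 72.0% and 100%, on 51 to 143 reads. It was the single gained body of 12 measured in the leukocyte list, beside 0.202% of all bodies. Of 5 endothelial and 5 fibroblast and adipocyte promoters 0 were lost or gained. Cldn5, an endothelial junction gene, read 71.2% and 80.4% against 80.3% and 89.3%, and Pparg, the fat cell regulator, 52.5% and 31.4% against 8.74% and 34.9%. The share of host cells in each tumor cannot be read from these values, and its part in the differences was not tested.

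In the ERR pathway and methionine cycle, 0 of 18 promoters were lost or gained. The median difference was 0.22 points, and both 5-azadC libraries lay above both vehicle libraries in 5 promoters and below them in 1. Across all coding promoters, 9.53% lay above and 17.0% below. Esrra, the gene of ERRα, was at 1.93% or below in each library, as were the promoters of Ahcy, Mat2a and Mat2b. Esrrg read 40.5% and 40.7% with vehicle and 25.2% and 42.2% with 5-azadC. Irf4, which encodes an interferon regulatory factor and not an enzyme of the methionine cycle, read 40.3% and 44.6% against 31.0% and 38.7%. Its difference was -6.10 points by reads and 4.45 points with each cytosine weighted equally. Gnmt, a methyltransferase that uses up S-adenosylmethionine, read 0% and 1.79% against 25% and 17.3%, on 48 to 208 reads.

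Gene families in clusters differed in level more than in calls. Hox promoters (31 measured) had 0 calls and a median of -5.41 points, and Hoxa2 read 82.2% and 80.3% with vehicle and 49.3% and 85.7% with 5-azadC, with overlap. Clustered protocadherins (21 measured) had Pcdha8 as the lost member and a median of 0 points. Of 249 Zfp promoters, 226 were unmethylated, Zfp819 was lost (44.6% and 52.6% against 24.4% and 0%) and Zfp583 was gained (31.6% and 66.7% against 85.0% and 94.6%). The gain of Zfp583 was 23.3 points without vehicle replicate 1, and the loss of Zfp819 -23.6 points without 5-azadC replicate 2. Olfactory and vomeronasal receptor promoters, rarely covered by RRBS, had 0 calls of 6 measured. Among gene bodies of these families, Hoxc12 was lost of 36 Hox bodies (82.7% and 47.6% against 37.4% and 36.2%), 7 of 235 Zfp bodies were lost, and 4 of 67 receptor bodies were lost and 1 gained. Over all gene bodies, 2.73% were lost and 0.202% gained.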

How the data were processed

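RRBS was measured in 8 pools of tumor DNA, of which the 2 vehicle and the 2 5-azadC libraries were compared. Per the submitters' processing notes, FastQC 0.11.8, Trim Galore 0.4.1, Bismark 0.20.0 and methylKit 1.7.0 were used with the builds mm10 and GRCm38. Cytosines of CpGs are listed strand by strand, and for each the authors deposited its fraction of methylated reads with a coverage count, without normalization. Their product was a whole number of reads (within 0.01) for over 99.9% of cytosines and was rounded. Trimming options were not given in the sources used here.

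Cytosines had 10 or more reads in all 4 libraries, and the 0.1% of highest coverage per library was left out. Reads were summed per 1000 bp tile, coding promoter and gene body (GENCODE M21, GRCm38). All listed positions were checked to be CpGs in the reference. The logistic test was coded in Python (version 3.11.15), on pandas 2.3.3, SciPy 1.17.1 and NumPy 2.4.6, while edgeR 4.0.16 with limma 3.58.1 ran in R 4.3.3 on methylated and unmethylated counts. q-values were adjusted over all regions of a kind. Sequences were read with pysam 0.24.0 and plots made in matplotlib 3.10.9. Both tests were first checked on simulated reads with known changes. The simulated spread between libraries was not set from these data, so the check does not show how the tests perform at the spread seen here. PCR copies were not marked, so reads are not independent molecules. Cytosines on the same read were also counted as if independent. The p-values of the logistic test cover counting error only, and under these assumptions.

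Genes named are the 10 largest losses and 5 largest gains among promoters, and the 8 and 4 among tiles without promoter cytosines, with 5 or more cytosines and 100 or more reads in each library, then the 5 genes with most lost tiles, members of the gene lists that were called or most methylated (any member for drug uptake, methylation machinery and ERR pathway, of which some are named), the 6 best kept promoters, and promoters at the 25 point threshold. Of these, 1 promoter that met this rule is not reported here. Members and lists were chosen with earlier results of these data known. The replicate numbers do not pair the libraries: deviations of libraries with the same number correlated at -0.00102 over tiles and -0.0128 over promoters. Alternatives covered coverage, weighting, thresholds, tests, strands, region limits and each library left out. Methylation outside CpGs and expression were not analysed here.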

Additional observations from a re-analysis of the deposited data

Results flagged for a closer look

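Of the 28 named regions that were lost or gained and had 30 or more reads in each of the other libraries, 3 moved the opposite way, with no overlap of libraries, when C29 with 5-azadC was set against C29 alone. The difference between the comparisons was not tested. Over all tiles measured in these libraries, those with both drugs lay above C29 without overlap in 8.62% of lost tiles and below in 23.8% of gained tiles, so that 3 of 28 is near the general share. The Skida1 promoter read 37.7% and 47.0% with C29 and 56.4% and 66.3% when 5-azadC was added, or 18.99 points higher, where 5-azadC minus vehicle was -50.6 points. The tile at chr4:143073001-143074000 read 32.7% and 35.2% with C29 and 53.5% and 51.4% when 5-azadC was added, or 18.5 points higher, against -58.7 points. The Agbl4 promoter read 20% and 30.1% with C29 and 17.8% and 17.9% when 5-azadC was added, or -7.19 points against 26.1 points.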

How the results depend on the processing

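The lower mean methylation kept its direction in all alternatives, from -4.63 to -4.19 points with each library left out, and was -3.25 points without CCGG cytosines. The position contrast (between genes minus promoters, -6.36 to -5.98 points), the change of tiles at 90% or above (-10.3 to -9.36 points, where only 5-azadC libraries can be left out) and the neighbour contrast (-7.19 to -6.40 points) kept theirs, and the WCGW contrast stayed between -0.162 and -0.0246 points with each library left out. In order of lost and gained tiles, promoters and gene bodies, the counts were 18113, 2003, 566, 90, 3680 and 182 at a difference of 10 points, and 15218, 2672, 192, 38, 575 and 73 from 1 cytosine up, where fewer demands are made. At 5 or more cytosines they were 1335 and 87 for tiles, 56 for lost promoters, and 230 and 13 for bodies. With 1 library left out, where a single library meets the demand on its group, they ran from 6867 to 8948, 1142 to 1538, 164 to 218, 36 to 49, 554 to 798 and 69 to 79. Lost and gained tiles were 2418 and 195 at 20 reads and 1693 and 208 without CCGG cytosines. Gained promoters were 17 with equal weights, 20 with overlap of libraries allowed and 19 with any transcript start. The overdispersion-corrected F test and both edgeR fits called 0 regions of each kind, and edgeR's lowest q was 0.233. The median of the lost tiles in the other libraries ran from -8.71 to -5.93 points with each of those libraries left out. The replicate numbers did not pair the libraries, and with the replicate block 4894 tiles were lost and 448 gained. Skap1 turned to -3.14 points at 5 reads and -1.25 points with strands summed, where Peg10 and Sgce were at -22.1, Amdhd2 at -24.4, B4galt2 at -16.1 and Ltb at 24.3 points. Of 31 named regions, 28 kept their call with equal weights, 23 with strands summed, 27 without vehicle replicate 1 and 28 without vehicle replicate 2. The alternatives without CCGG cytosines and beside tiles of like level were chosen after seeing the data, and the cause of these shifts was not tested.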
